A study of Canis lupus familiaris with 36 samples.

Results

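High-grade B lymphomas were set against high-grade T lymphomas in primary tumours of 20 dogs, out of 35 dogs in the series. The tumours had been broken up mechanically and filtered before total RNA was taken. The 12 B dogs were the 10 labelled DLBCL (diffuse large B-cell lymphoma) and the 2 labelled BL. The 8 T dogs were the 4 labelled LBT and the 4 labelled PTCL (peripheral T-cell lymphoma), and the labels do not spell out BL or LBT. All were graded high except PTCL dog 4, which was graded intermediate. The dogs were placed in these groups by their disease state labels. The B dogs were 7 females and 5 males of 2 to 14 years at diagnosis (the unit is taken as years, which the labels do not state), among them 7 Golden Retrievers, and the T dogs were 5 females and 3 males of 3 to 14 years, among them 4 Golden Retrievers. Each dog was a separate case with 1 array, except that DLBCL dog 6 had 2 arrays, which were averaged. Dogs are numbered within their label, and no DLBCL dog carries the number 7.

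B and T lymphocytes arise from a shared progenitor and read antigen through different receptors. B cells carry an immunoglobulin receptor with the CD79 chains, which signals through SYK, BLNK, BTK and PLCG2, and T cells carry the T cell receptor with the CD3 chains, which signals through LCK, LAT and PRKCQ. High-grade lymphomas of either lineage divide quickly, and in dogs the T lineage forms are the ones best known for raised blood calcium.

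Expression was measured on Affymetrix canine arrays as 1 intensity per probe set, given here as log2, where a log2 value of 4 (an intensity of 16) is used as the minimum for a level above background. On the 21 arrays of these dogs, 32.2% to 35.5% of the probe sets reached that minimum. All 7163 genes that reached it in at least 4 of the 20 dogs were tested with limma, and a gene was called at a Benjamini-Hochberg adjusted p under 0.05. A difference is B minus T on the log2 scale, with its standard error (SE). For folds, values under the minimum were raised to it in both groups. Where every dog of a group was under it, the fold is given as "at least" and sets the minimum against the mean of the other group's own values, none of them raised.

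The arrays of DLBCL dogs 4 and 9 and of PTCL dog 3 stood apart from the other 17 by their actin 3' control, which read 14.1 to 14.4 against 11.0 to 12.5 on the others. A probe set that reads below 4 in all 12 labelled females also did so in 2 of the 8 labelled males, PTCL dog 3 (1.63) and BL dog 2 (3.93). The 3' minus 5' difference of the GAPDH control, a measure of RNA quality, was larger in B dogs, at 3.44 ± 0.32 (SD, n = 12) against 2.84 ± 0.33 in T dogs (SD, n = 8, exact permutation p = 0.00100, two-sided, 0.00200 adjusted over 2 controls). For actin it was 1.30 ± 1.38 in B dogs and 0.07 ± 1.35 in T dogs (exact permutation p = 0.0555, adjusted 0.0555). Since these controls moved with the groups, list counts that changed with both as covariates are given beside the main ones.

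Limma called 2359 of 7163 genes between high-grade B and high-grade T (32.9%), of which 1102 (15.4%) were higher and 1257 (17.5%) lower in B dogs. With the actin and GAPDH 3' minus 5' differences as covariates 1213 genes (16.9%) were called. Of the calls, 1423 (19.9% of all genes) were differences of at least 2-fold. The median difference over all genes tested was -0.00, a value that the quantile normalization in the deposited intensities holds near 0. The count was 2229 without the 3 arrays that stood apart, 2449 without PTCL dog 4 of intermediate grade and 2387 without PTCL dogs 1 and 4, an alternative chosen after seeing the data. For 64 genes (0.893%) every B dog was above every T dog, and for 115 genes (1.61%) every B dog was below every T dog. Of the list counts given below, those of the main fit stand against 32.9% of all genes, and those with the covariates against 16.9%.

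The lineage labels were checked on markers. Of 7 B cell markers with a probe set, 6 were at the minimum or above in each of the 12 B dogs, and the seventh, PAX5, was below it in all 20 dogs. Of 8 T cell markers, 7 or 8 were at the minimum or above in each T dog, and all 8 were called lower in B dogs. The mean log2 level of the B markers was 7.29 to 8.45 in B dogs and 2.48 to 7.28 in T dogs, and that of the T markers 5.93 to 7.66 in B dogs and 9.00 to 11.6 in T dogs. B markers were not low in every T tumour. PTCL dogs 1 and 4 had 6 of the 7 at the minimum or above, LBT dog 4 had 5, and the other 5 T dogs had 0 to 2. T markers were also present in B tumours, with 4 to 7 of 8 at the minimum or above. The part of these B markers in the differences below was not tested beyond leaving dogs out. In bulk samples, fewer cells of a type and less RNA per cell cannot be told apart.

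MS4A1, the B cell antigen CD20, shows both facts. Its level was 10.87, 11.34 and 12.40 (lowest, median and highest) in B dogs. In the T dogs it was 3.42, 4.35, 6.70 and 10.67 in LBT dogs 1 to 4 and 9.97, 6.80, 9.29 and 10.80 in PTCL dogs 1 to 4. The B dogs were all above the T dogs, but LBT dog 4 and PTCL dogs 1 and 4 came close to them, and the difference was 3.72 (SE 0.78, adjusted p = 0.00101). CD3E, a signalling chain of the T cell receptor, ran from 2.35 in DLBCL dog 1 to 10.29 in DLBCL dog 8 among B dogs, against 9.06, 11.76 and 12.48 in T dogs. PTCL dog 4 was the lowest T dog for CD3E and lay below 3 B dogs. The difference was -4.75 (SE 0.89, adjusted p = 0.000390).

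**Figure D1:**
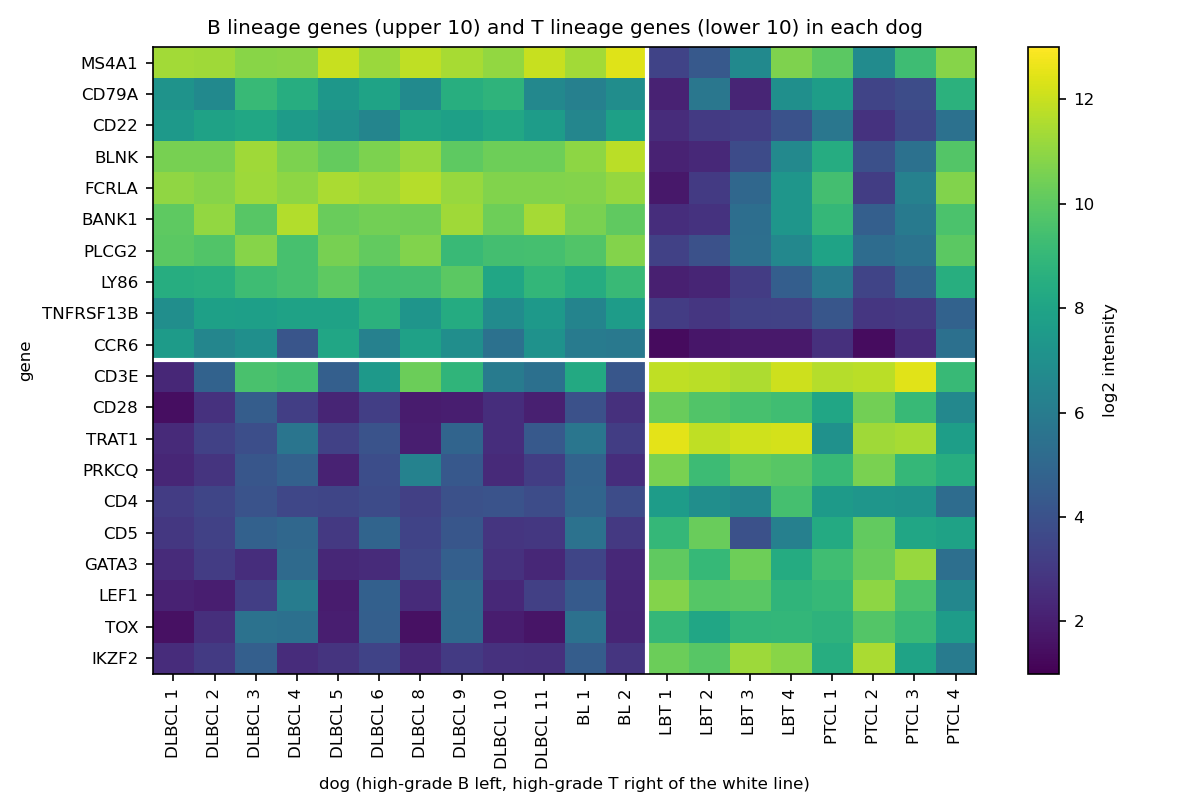
Log2 intensity (colour) of 10 B lineage genes (upper rows) and 10 T lineage genes (lower rows) in each dog (columns), with the 12 high-grade B dogs left of the white line and the 8 high-grade T dogs right of it. B lineage genes are bright in all B dogs and also, at lower levels, in PTCL dogs 1 and 4 and LBT dog 4, while PTCL dog 4 has the lowest CD3E of the T dogs.

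Genes of the T cell receptor and its proximal signalling were lower in B dogs almost throughout. Of 25 list members tested, 22 were called lower and 0 higher (19 and 0 with the 3' and 5' covariates), with a median difference of -4.13 against -0.00 over all genes. TRAT1, an adaptor that stabilises the receptor at the surface, had 2.01, 3.61 and 5.70 in B dogs and 7.08, 11.66 and 12.52 in T dogs. The groups did not overlap, and PTCL dogs 1 (7.08) and 4 (7.73) were well below the other 6 T dogs, whose lowest value was 11.30. TRAT1 was 84.6-fold lower in B dogs. CD28, the costimulatory receptor, had 1.46, 2.62 and 4.54 in B dogs and 6.58, 9.42 and 10.47 in T dogs, a difference of -6.41 (SE 0.46, adjusted p = 9.63e-09). PRKCQ, the kinase that links the receptor to NF-kappaB, differed by -5.98 (SE 0.48), and the zeta chain CD247 by -4.13 (SE 0.38). The co-receptor CD4 had 3.13, 3.76 and 4.93 in B dogs and 5.24, 7.25 and 9.45 in T dogs, again without overlap (difference -3.45, adjusted p = 7.94e-07). The 3 members without a call, named after their values were seen, were CD8B (0.46), RASGRP1 (0.11) and PTPN22 (-0.75).

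Transcription factors of the T lineage followed the same split in part. Of 12 tested, 8 were called lower in B dogs and 0 higher, with a median of -2.53. IKZF2 (Helios), a factor of regulatory T cells and thymocytes, had 2.32, 2.83 and 4.64 in B dogs and 5.97, 10.08 and 11.48 in T dogs. GATA3, which directs T helper fate, had 2.32, 2.64 and 5.15 in B dogs and 5.39, 9.70 and 11.16 in T dogs, and LEF1, a partner of beta-catenin in T cell development, had 1.93, 2.86 and 6.02 in B dogs and 6.56, 9.71 and 10.95 in T dogs. Neither factor overlapped between the groups, although PTCL dog 4 was the lowest T dog for GATA3, LEF1 and IKZF2. SATB1, a chromatin organiser of thymocytes, differed by -3.95 (SE 0.42), and TOX, a factor of thymic and exhausted T cells, by -5.47 (SE 0.61).

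The widest gaps between the groups were in genes with lower levels in B dogs. DPP4 (CD26), a peptidase on activated T cells, had 2.61, 3.23 and 4.46 in B dogs. In T dogs it was 14.23, 12.27, 11.12 and 8.97 in LBT and 10.42, 9.61, 11.41 and 8.40 in PTCL. Every T dog lay at least 3.94 above every B dog, and DPP4 was 107-fold lower in B dogs (difference -7.42, SE 0.55, adjusted p = 9.63e-09). TSPAN5, a tetraspanin that guides the protease ADAM10, reached the minimum in no B dog (2.25, 2.64 and 3.39) and had 5.71, 8.93 and 9.78 in T dogs, so that it was at least 21.6-fold lower in B dogs. FBP1, the gluconeogenic fructose bisphosphatase, likewise reached it in no B dog (2.12, 2.54 and 3.09) and had 5.61, 7.73 and 9.31 in T dogs, at least 11.1-fold lower in B dogs. For FBP1 and TSPAN5 the B values are background readings, so no gap is given. The gap between the highest B dog and the lowest T dog was 2.19 for PRKCQ and 2.13 for TOX. The lowest T dog was PTCL dog 2 for FBP1 and PTCL dog 4 for TSPAN5, TOX and PRKCQ.

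PTHLH, the parathyroid hormone related protein behind much of the high blood calcium of cancer, was bright in 7 of 8 T dogs. Its level was 9.22, 9.76, 10.49 and 10.28 in the LBT dogs and 9.53, 11.57, 10.46 and 2.40 in PTCL dogs 1 to 4. In B dogs it was 1.50, 2.10 and 2.61, below the minimum in all 12. PTCL dog 4 was thus in the range of the B dogs and the other 7 T dogs were far above it. PTHLH was at least 37.2-fold lower in B dogs (difference -7.12, SE 0.76, adjusted p = 9.97e-07, and -8.10 without PTCL dog 4). Blood calcium was not analysed here. INPP4B, a phosphatase that limits PI3K signalling, had the same shape, with 1.50, 2.08 and 3.02 in B dogs, 9.92, 9.85, 9.96 and 9.26 in LBT dogs and 7.89, 9.82, 9.28 and 3.78 in PTCL dogs 1 to 4, where dog 4 was also below the minimum. It was at least 26.3-fold lower in B dogs.

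Other genes among the 12 with the largest differences in this direction were MGLL, the monoacylglycerol lipase (43.4-fold lower in B dogs), and CTSW, a cathepsin of cytotoxic T and NK cells (50.1-fold). SNCG, a synuclein (40.3-fold), and ATP2B4, a calcium pump of the plasma membrane (35.1-fold), belonged to them too. CTSW had 3.74, 5.59 and 8.72 in B dogs and 9.41, 11.71 and 12.55 in T dogs, and MGLL had 2.28, 2.60 and 6.06 in B dogs and 7.91, 9.59 and 11.39 in T dogs. Neither gene overlapped between the groups. For all 12 genes the call held with the 3' and 5' covariates, with adjusted p up to 0.00279, and without any single dog.

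**Figure D2:**
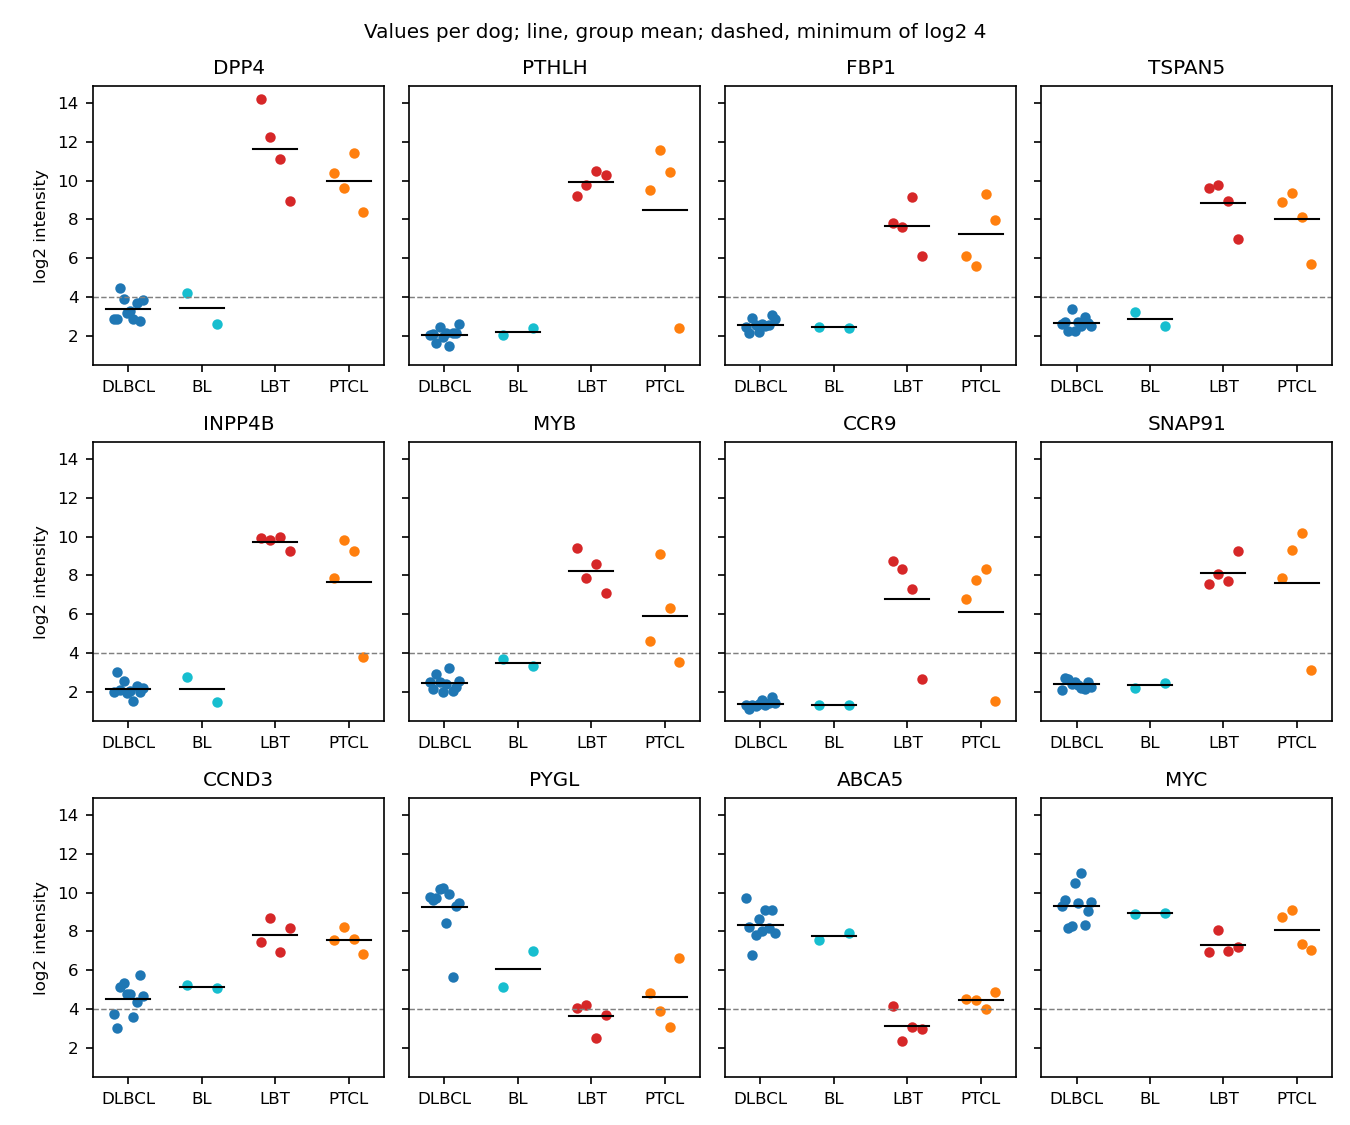
Log2 intensity of 12 genes in each dog (points) by label, with the group mean (line) and the minimum of log2 4 (dashed). In the upper 2 rows the T dogs are above the B dogs except where PTCL dog 4 or LBT dog 4 falls to the level of the B dogs, and in the lower row CCND3 is lower in B dogs while PYGL, ABCA5 and MYC are higher in them.

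Genes of B cell identity were higher in B dogs, with 18 of 21 list members called higher and 1 lower, and a median of 2.48. FCRLA, an Fc receptor-like protein inside B cells, had 10.71, 11.06 and 11.67 in B dogs. In T dogs it was 1.78, 3.05, 5.00 and 7.29 in LBT and 9.40, 3.17, 6.26 and 10.72 in PTCL. PTCL dog 4 overlapped the B dogs and PTCL dog 1 came next, while LBT dogs 1 and 2 and PTCL dog 2 were below the minimum. The difference was 5.24 (SE 0.85, adjusted p = 9.89e-05). BANK1, a scaffold of B cell receptor signalling, was 20.9-fold higher in B dogs, and its 2 highest T dogs were PTCL 4 (9.62) and PTCL 1 (8.97). The inhibitory receptor CD22 had 6.44, 7.72 and 8.19 in B dogs and 2.52, 3.42 and 5.76 in T dogs without overlap (difference 3.75, SE 0.39, adjusted p = 7.24e-07). The transcription factor EBF1 differed by 4.16 (SE 0.62), the kinase BLK by 3.28 (SE 0.48) and CD180, a receptor that B cells use to sense bacteria, by 3.76 (SE 0.54). LY86, the protein partner of CD180, was 17.4-fold higher. CD83, a marker of activated B cells and dendritic cells, was the one member called lower (-1.54, adjusted p = 0.0319), a call that was lost without PTCL dog 4 (adjusted p = 0.0691) and with the 3' and 5' covariates (adjusted p = 0.658).

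In B cell receptor signalling 12 of 20 genes were called higher and 2 lower in B dogs (11 and 1 with the 3' and 5' covariates), with a median of 1.38. The adaptor BLNK had the largest difference, with 10.02, 10.57 and 11.75 in B dogs and 2.16, 2.37, 3.75 and 6.64 in LBT and 8.41, 3.91, 5.46 and 9.78 in PTCL dogs. All B dogs were above all T dogs, of which PTCL dog 4 came closest, and BLNK was 30.0-fold higher in B dogs (difference 5.38, SE 0.76, adjusted p = 2.51e-05). The phospholipase PLCG2 differed by 4.00 (SE 0.61), the exchange factor RASGRP3 by 3.55 (SE 0.57) and the kinase PRKCD by 2.60 (SE 0.43). The 2 called lower were PIK3CD (-1.63, adjusted p = 0.00333), the leukocyte PI3-kinase catalytic subunit, and MALT1 (-1.36, adjusted p = 0.0141), the paracaspase that carries receptor signals to NF-kappaB. The PIK3CD call was lost with the 3' and 5' covariates (adjusted p = 0.103).

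Several of the 12 largest differences in the B direction lay outside those lists. PLPP3, a lipid phosphate phosphatase, had 5.24, 9.20 and 11.12 in B dogs and 2.55, 3.57 and 5.83 in T dogs, and was 24.6-fold higher in B dogs. NAPSA, an aspartic protease, had 6.50, 9.21 and 10.06 in B dogs and 2.23, 3.38 and 7.47 in T dogs. Each overlapped only through DLBCL dog 3, the lowest B dog, and PTCL dog 4, the highest T dog. ABCA5, a lipid transporter, did not overlap, with 6.78, 8.11 and 9.71 in B dogs and 2.34, 4.07 and 4.89 in T dogs (difference 4.44, SE 0.36, adjusted p = 3.14e-08). RIPK2, the kinase downstream of the NOD receptors, was 17.7-fold higher in B dogs without overlap.

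PYGL, the liver form of glycogen phosphorylase, had 5.13, 9.55 and 10.23 in B dogs and 2.53, 3.97 and 6.64 in T dogs (difference 4.60, SE 0.68, adjusted p = 4.14e-05). Its 3 lowest B dogs were BL dog 1 (5.13), DLBCL dog 9 (5.64) and BL dog 2 (7.01), and the other 9 B dogs were at 8.44 or above. GUCY1B1, a subunit of soluble guanylate cyclase, had 2.59, 9.25 and 9.91 in B dogs and 1.66, 2.05 and 6.36 in T dogs, and OSBPL6, an oxysterol-binding protein relative, had 3.24, 8.68 and 9.57 in B dogs and 2.44, 3.16 and 5.35 in T dogs. DLBCL dog 3 was the lowest B dog for both and within the range of the T dogs. LOC490269, which the annotation names only by its locus, was 23.6-fold higher in B dogs. The widest gaps with higher levels in B dogs belonged to ABCA5, at 1.89, and TNFRSF13B (TACI, a receptor for BAFF and APRIL), at 1.66. C10H12orf66 (1.17), CHPT1, which makes phosphatidylcholine (0.99), and the adiponectin receptor ADIPOR2 (0.93) followed. TNFRSF13B had 6.42, 7.69 and 8.69 in B dogs and 2.88, 3.21 and 4.76 in T dogs.

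**Figure D3:**
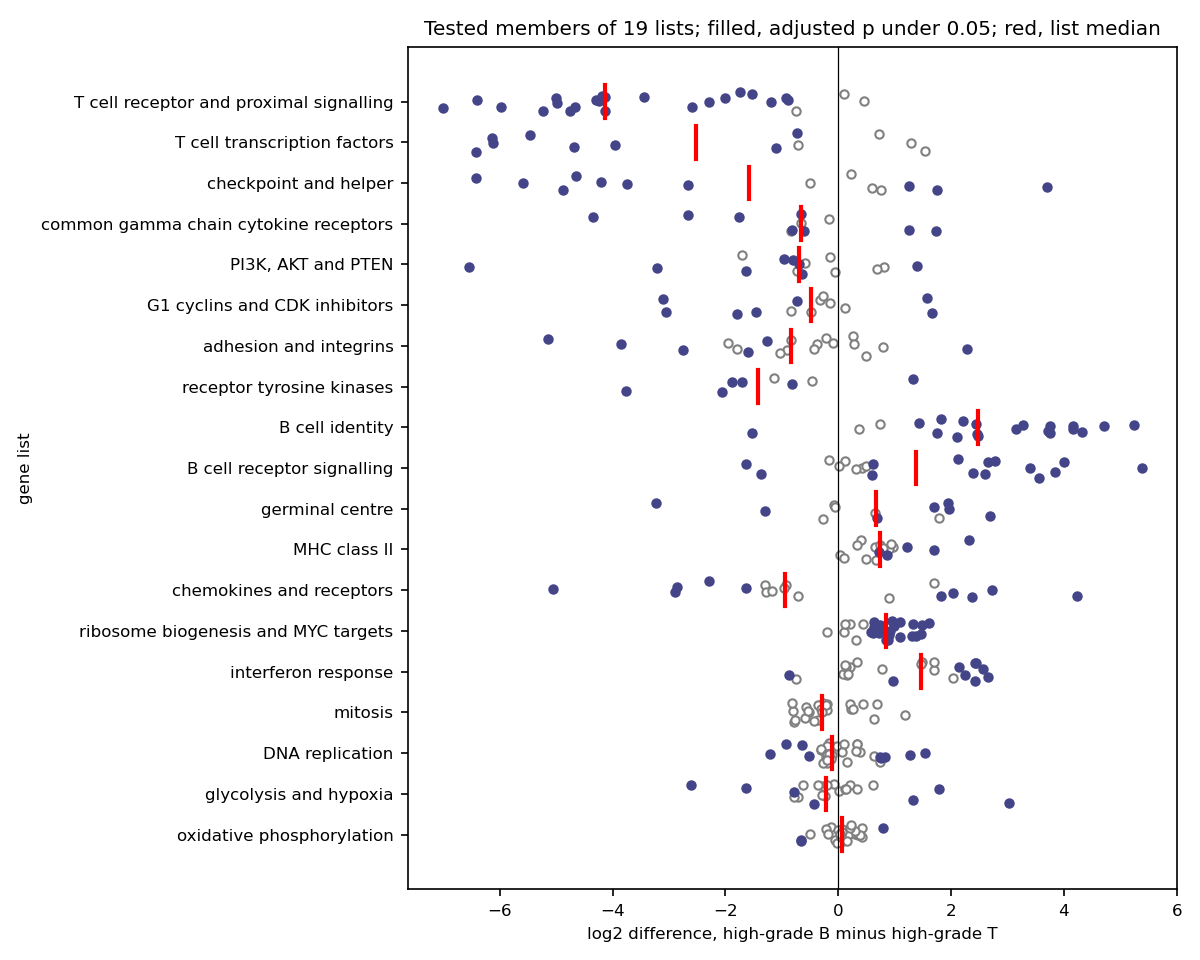
Log2 difference (high-grade B minus high-grade T) of every tested member of 19 gene lists, with filled points for genes called at an adjusted p under 0.05, open points for the rest and a red bar at the list median. T lineage lists lie left of 0, B lineage, ribosome biogenesis and interferon lists right of it, and no mitosis gene is filled.

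The 2 BL dogs were read beside the DLBCL dogs with no test, since there were only 2. Both were below all DLBCL dogs but dog 9 for PYGL, as above. MYC was 8.92 and 8.96 in BL dogs 1 and 2, inside the DLBCL range of 8.16 to 11.0. Within DLBCL, dog 3 was the lowest B dog for PLPP3, NAPSA, ABCA5, RIPK2, OSBPL6 and GUCY1B1 and the only B dog with CD8A above the minimum (5.42).

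Of 14 genes of T cell help and restraint, 7 were called lower and 3 higher in B dogs, with a median of -1.58. The 7 include the transcription factor IKZF2, which is also counted above. With the 3' and 5' covariates 6 were called lower and 1 higher, with a median of -0.57. CD40LG, the ligand with which helper T cells stimulate B cells, had 1.37, 1.81 and 3.79 in B dogs and 5.49, 8.11 and 9.15 in T dogs, at least 12.4-fold lower in B dogs. TNFRSF18 (GITR) was at least 8.47-fold and the costimulator ICOS at least 4.28-fold lower. Higher in B dogs was CD40, the receptor for CD40LG on B cells, with 7.39, 8.17 and 8.70 in B dogs and 2.13, 3.68 and 8.08 in T dogs, the highest being PTCL dog 4 (difference 3.71, adjusted p = 8.28e-05). CD70, the ligand of CD27 (1.75, adjusted p = 0.00937), and IL2RA, the alpha chain of the interleukin 2 receptor (1.25, adjusted p = 0.0352), were also called higher. Neither kept its call with the 3' and 5' covariates (adjusted p = 0.0880 for CD70 and 0.103 for IL2RA).

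Among common gamma chain cytokine receptors, their ligands and kinases, 6 of 11 were called lower and 2 higher in B dogs. The 2 were the receptor chain IL2RA and the cytokine IL7. These counts became 2 and 0 with the 3' and 5' covariates. IL7R, the interleukin 7 receptor of T cells and their precursors, had 3.36, 4.41 and 7.66 in B dogs and 7.22, 9.53 and 11.32 in T dogs (difference -4.36, SE 0.61, adjusted p = 2.46e-05). IL21R reached the minimum in no B dog, which makes it at least 2.61-fold lower there. Of 18 chemokines and their receptors 5 were called higher and 5 lower, and 3 and 2 with the 3' and 5' covariates. Over all genes the shares called in these 2 fits were 32.9% and 16.9%. CCR9, the homing receptor of thymocytes and gut T cells, had 1.13, 1.34 and 1.76 in B dogs, 8.77, 8.34, 7.32 and 2.64 in LBT dogs and 6.77, 7.78, 8.34 and 1.54 in PTCL dogs. Of the T dogs, 6 were bright while LBT dog 4 and PTCL dog 4 were below the minimum, and CCR9 was at least 5.42-fold lower in B dogs. CCR4, a receptor of helper T cells that home to skin, differed by -2.86 (SE 0.60). CCR6, which directs B cells and memory T cells to mucosa, was 5.27-fold higher in B dogs (difference 4.23, adjusted p = 5.68e-06).

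Of 15 genes that limit or carry PI3K signalling 7 were called lower and 1 higher in B dogs (5 and 1 with the 3' and 5' covariates). After INPP4B the largest was PIK3IP1, an inhibitor of PI3K, with 2.11, 3.35 and 4.35 in B dogs and 3.02, 6.61 and 8.75 in T dogs (-3.21, adjusted p = 0.000108). FOXO3, a factor that AKT inactivates, was the one called higher (1.40, adjusted p = 0.000117). Among 19 adhesion genes 5 were called lower and 1 higher (3 and 1 with the 3' and 5' covariates), close to the share over all genes (32.9%), and the differences of single integrins follow. ITGA5, the fibronectin receptor chain, had 2.36, 2.75 and 3.58 in B dogs and 4.68, 8.23 and 9.12 in T dogs, and thus reached the minimum in no B dog. It was at least 15.0-fold lower there. ITGA6, a laminin receptor chain, differed by -3.84 (SE 0.76) and ITGB7, of the gut homing integrin, by -2.75 (SE 0.51). ITGB1 differed by 2.28 (SE 0.53, adjusted p = 0.00256) in the opposite direction. The ITGB7 and ITGB1 calls were lost with the 3' and 5' covariates (adjusted p = 0.0720 and 0.0714). Of 8 genes of receptor tyrosine kinases and VEGF ligands, 5 were called lower and 1, the ligand VEGFA, higher (3 and 0 with the 3' and 5' covariates). The collagen receptor DDR1 had the largest difference (-3.77, adjusted p = 3.80e-05). The mast cell and progenitor kinase KIT was below the minimum in all 20 dogs.

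Genes of the G1 phase differed in both directions. Of 13, 5 were called lower and 2 higher in B dogs, and 3 and 1 with the 3' and 5' covariates. Over all genes the shares called were 32.9% and 16.9%. Cyclin D3 (CCND3) had 3.03, 4.78 and 5.77 in B dogs and 6.85, 7.58 and 8.67 in T dogs, without overlap (difference -3.06, SE 0.33, adjusted p = 9.97e-07). The inhibitor of CDK4 and CDK6 CDKN2C had 3.39, 7.75 and 9.96 in B dogs and 9.78, 10.53 and 11.16 in T dogs (-3.11, adjusted p = 0.00136), and the related CDKN2D differed by -1.45 (SE 0.35). MYC had 8.16, 9.18 and 11.00 in B dogs and 6.96, 7.29 and 9.09 in T dogs, which overlapped, with a difference of 1.57 (SE 0.37, adjusted p = 0.00278), and cyclin E1 (CCNE1) differed by 1.66 (SE 0.43, adjusted p = 0.00576). With the 3' and 5' covariates MYC (adjusted p = 0.185), CDKN2C (0.0729) and CDKN2D (0.224) were not called.

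No mitosis gene separated the lineages. Of 24 tested, 0 were called by limma, 3 had an unadjusted p under 0.05, and the median difference was -0.29. The mean level over the list was 6.17, 7.38 and 8.32 (lowest, median and highest) in B dogs and 6.19, 7.60 and 8.31 in T dogs, and the groups lay over each other. The smallest p belonged to HMMR, a spindle protein (1.19, adjusted p = 0.0531), and CDK1, the kinase that starts mitosis, had a difference of -0.57, adjusted p = 0.112. The fits with PTCL dog 4 left out, with PTCL dogs 1 and 4 left out (chosen after seeing the data) and with quantile normalization called 1 mitosis gene. DNA replication was mixed, with 5 of 32 genes called higher and 4 lower in B dogs, no more than the share over all genes (32.9%), and a median of -0.12. The counts were 2 and 0 with the 3' and 5' covariates. POLD1, the catalytic subunit of polymerase delta, had 7.45, 7.67 and 8.12 in B dogs and 5.33, 6.27 and 7.49 in T dogs (1.54, adjusted p = 1.81e-05), and the clamp loader subunit RFC2 differed by 0.76 (SE 0.14). The helicase subunit MCM5 (-0.92, adjusted p = 0.0330) and thymidine kinase TK1 (-1.21, adjusted p = 0.0441) were lower, though neither was called with the 3' and 5' covariates, where TK1 turned to 0.43, and leaving out 1 dog gave adjusted p up to 0.0818 and 0.107.

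Ribosome biogenesis genes were higher in B dogs with few exceptions. Of 29 tested, 23 were called higher and 0 lower, with a median of 0.85, and 28 of 29 had a positive difference. NOP56, a core protein of the snoRNA particles that modify ribosomal RNA, had 10.34, 11.21 and 11.52 in B dogs and 8.90, 9.74 and 10.03 in T dogs, without overlap (1.39, SE 0.20, adjusted p = 2.51e-05). TCOF1, which aids transcription of ribosomal DNA, differed by 1.60 (SE 0.23), the pseudouridine synthase DKC1 by 1.09 (SE 0.16) and the methyltransferase NOP2 by 1.09 (SE 0.17). The mean level over the list was 8.85, 9.58 and 9.69 in B dogs and 8.46, 8.74 and 9.01 in T dogs, and DLBCL dog 3 (8.85) was the only B dog within the range of the T dogs. With the 3' and 5' covariates 10 of the 29 were called, all higher, with a median of 0.63.

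Interferon response genes were higher in part of the B dogs. Of 23 tested, 8 were called higher and 1 lower, with a median of 1.47. Over all genes 15.4% were called higher and 17.5% lower. HERC5, an ISG15 ligase, had 4.63, 7.23 and 9.34 in B dogs and 3.71, 4.36 and 6.19 in T dogs (2.65, SE 0.53, adjusted p = 0.000702), and USP18, which removes ISG15, had 4.71, 7.01 and 8.49 in B dogs and 3.06, 4.47 and 5.92 in T dogs (2.45, adjusted p = 0.00109). XAF1 (2.57, SE 0.68) and the transcription factor IRF7 (2.13, SE 0.59) followed, while GBP1, a GTPase induced by interferon gamma, was lower (-0.88, adjusted p = 0.0147). The mean list level spread widely within the B dogs, at 4.03, 7.15 and 8.02, against 4.45, 6.05 and 6.98 in T dogs, and DLBCL dog 2 (4.03) was the lowest of all 20. With the 3' and 5' covariates 2 of the 23 were called higher and 0 lower, so that GBP1 lost its call. This was a smaller share than over all genes in that fit (16.9%). Without the 3 arrays that stood apart 6 of the 23 were called. The highest levels were in DLBCL dogs 4 (8.02) and 9 (8.01), which are 2 of those 3 arrays.

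Energy metabolism differed in single enzymes rather than as a group. Of 22 glycolysis and hypoxia genes, 3 were called higher and 4 lower in B dogs, and 2 and 0 with the 3' and 5' covariates. PFKL, the liver form of phosphofructokinase, had 8.60, 9.31 and 10.61 in B dogs and 4.50, 6.26 and 8.73 in T dogs (3.03, SE 0.46, adjusted p = 5.13e-05), and hexokinase 1 (HK1) differed by 1.78, adjusted p = 0.00750. The enolase ENO2 was lower (-2.62, adjusted p = 0.00330), although not with the 3' and 5' covariates (adjusted p = 0.336). The 7 calls among these 22 genes were close to the share called over all genes (32.9%). Of 26 oxidative phosphorylation genes, 1 was called higher and 2 lower (0 and 1 with the 3' and 5' covariates), a smaller share than that.

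**Figure D4:**
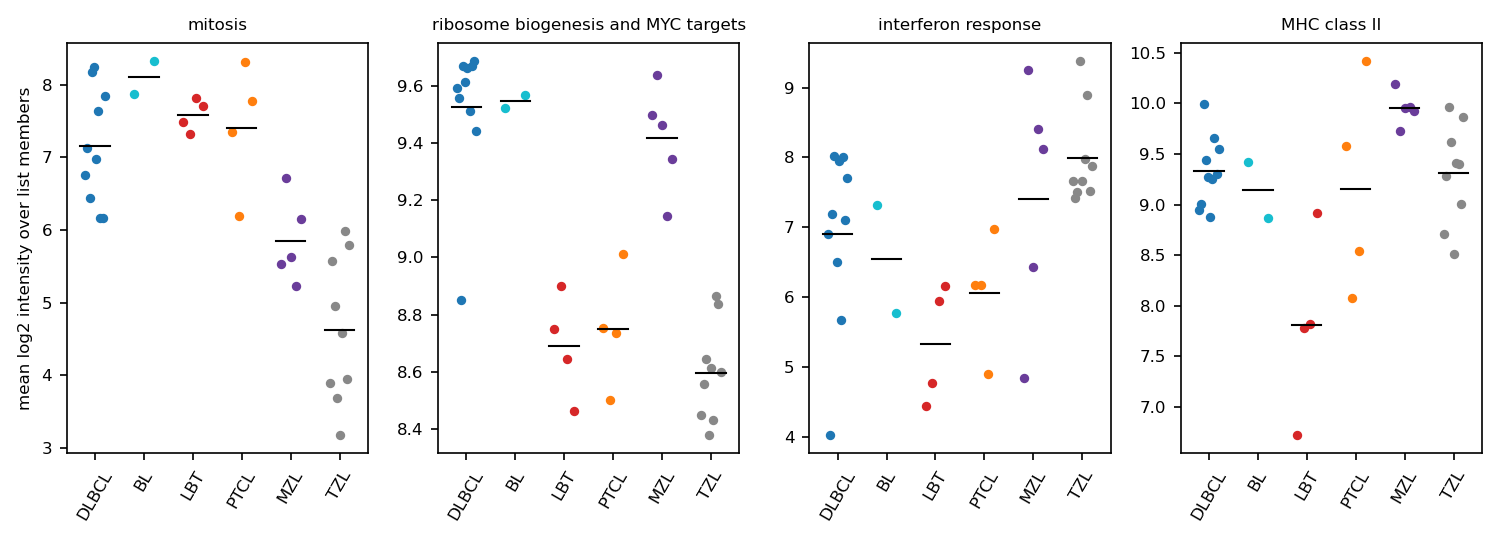
Mean log2 intensity over the tested members of 4 gene lists in each dog (points), by label, with the group mean (line), for the high-grade groups DLBCL, BL, LBT and PTCL and the low-grade groups MZL and TZL. Mitosis levels of high-grade B and T dogs lie over each other, ribosome biogenesis is higher in all B dogs but DLBCL dog 3, interferon response spreads from 4.03 to 8.02 in B dogs, and MHC class II is highest in PTCL dog 4.

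Antigen presentation by MHC class II was called higher in B dogs for 5 of 17 genes and lower for 0 (4 and 0 with the 3' and 5' covariates), with a median of 0.73. The share called was no higher than that of all genes (32.9%), although that of calls in this direction was 15.4% over all genes. DLA-DMB, which loads peptides, had 9.58, 10.22 and 10.70 in B dogs, 4.78, 7.19, 6.14 and 8.32 in LBT dogs and 10.33, 6.73, 8.57 and 11.07 in PTCL dogs. PTCL dogs 1 and 4 were at the level of the B dogs and LBT dogs 1 to 4 below it (difference 2.32, SE 0.58, adjusted p = 0.00387). The invariant chain CD74 differed by 1.22 (SE 0.36, adjusted p = 0.0135). Against LBT alone limma called 11 of the 17 (29.2% of all genes) and against PTCL alone 0 (16.4% of all genes, a comparison that shares the B dogs), and without PTCL dogs 1 and 4 the count of called genes was 12, while the fit over all 20 dogs had 8 with an unadjusted p under 0.05. CIITA, the master regulator of the class, was not called (0.03, adjusted p = 0.972). For MHC class I processing 2 of 19 were called higher and 4 lower, again close to the share over all genes, led by NLRC5, the regulator of class I genes (-1.54, adjusted p = 0.000632), and with the 3' and 5' covariates 1 and 0.

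Germinal centre and plasma cell genes did not move as blocks. Of 12 germinal centre genes 5 were called higher and 2 lower in B dogs (3 and 1 with the 3' and 5' covariates). Over all genes the shares called were 32.9% and 16.9%. BCL6, the repressor that defines germinal centre B cells, was called lower, with 3.03, 6.22 and 9.63 in B dogs and 7.44, 9.11 and 12.43 in T dogs, and PTCL dog 2 the highest of all (12.43). It was 8.83-fold lower in B dogs (-3.22, SE 0.73, adjusted p = 0.00196). LMO2, a B cell and progenitor factor, was higher (2.69, SE 0.56, adjusted p = 0.000936), as was STX7, a syntaxin of endosomes (1.97, adjusted p = 1.88e-05). Of 11 plasma cell genes 3 were called higher and 2 lower (2 and 0 with the 3' and 5' covariates), beside the same shares over all genes. FKBP11, a chaperone of secretory cells, had 9.33 ± 0.43 in B dogs and 6.60 ± 1.63 in T dogs (SD, n = 12 and 8) and differed by 2.72 (SE 0.46, adjusted p = 0.000154). XBP1, the switch of the secretory programme, was lower (-1.19, adjusted p = 0.00909), although not with the 3' and 5' covariates (adjusted p = 0.391).

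Genes of immature lymphocytes gave single differences. MYB, a factor of progenitors and thymocytes, had 2.00, 2.51 and 3.68 in B dogs, below the minimum in all 12, against 9.43, 7.88, 8.57 and 7.08 in LBT dogs and 4.62, 9.09, 6.35 and 3.53 in PTCL dogs. PTCL dog 4 was in the range of the B dogs, and MYB was at least 8.39-fold lower in B dogs (-4.44, SE 0.60, adjusted p = 1.52e-05). DNTT, the polymerase that adds random nucleotides to receptor genes, was above the minimum in 5 of 12 B dogs and 2 of 8 T dogs. Its highest values were 8.03 in DLBCL dog 4, 7.79 in BL dog 2, 7.25 in DLBCL dog 8 and 6.90 in BL dog 1, and in the LBT dogs it was 5.43, 2.81, 4.42 and 2.76. The difference was 1.19, adjusted p = 0.298. CD34, a surface marker of progenitors, was below the minimum in all 20 dogs.

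Cytotoxic genes were mixed. Of 15, 3 were called lower and 2 higher in B dogs (3 and 1 with the 3' and 5' covariates), close to the share over all genes (32.9%). Lower besides CTSW were SRGN, the proteoglycan of secretory granules (-2.99, adjusted p = 2.51e-05), and CRTAM, a receptor of activated killer cells (-2.53, adjusted p = 0.00148). FASLG, the death ligand of killer cells, was higher, with 4.16, 5.17 and 7.19 in B dogs and 2.47, 2.81 and 5.35 in T dogs (2.25, SE 0.41, adjusted p = 0.000284), and so was the NK receptor KLRD1 (1.67, adjusted p = 0.0333), which was not called with the 3' and 5' covariates (adjusted p = 0.151). The coreceptor CD8A was below the minimum in all 8 T dogs.

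Death regulators were split, with 3 of 18 called higher and 3 lower (2 and 0 with the 3' and 5' covariates), close to the share of all genes that was called (32.9%). BCL2L14, a BCL2 relative, had 4.00, 6.79 and 8.05 in B dogs and 1.82, 2.28 and 4.34 in T dogs (4.11, SE 0.41, adjusted p = 3.71e-07). BCL2, the apoptosis inhibitor, had 5.16, 6.48 and 9.71 in B dogs and 6.98, 7.59 and 9.74 in T dogs (-1.30, adjusted p = 0.0415), a call lost with the 3' and 5' covariates (adjusted p = 0.492) and with adjusted p up to 0.0970 without 1 dog. Of 12 genes of the p53 pathway 4 were called higher and 2 lower (2 and 1 with the 3' and 5' covariates). The shares over all genes were 32.9% and 16.9%. Those called were led by SESN1, a stress-induced regulator of mTORC1 (3.15, adjusted p = 6.82e-05), and the kinase PLK3 (-2.10, adjusted p = 8.15e-06). Of 20 NF-kappaB genes 2 were called higher and 4 lower (1 and 2 with the 3' and 5' covariates), again close to the share over all genes. Apart from CD40 the one called higher was TRAF3, a brake on the non-canonical pathway (1.08, adjusted p = 0.00248, with every T dog below the minimum), and of those called lower the inhibitor NFKBIB had the smallest p (-1.28, adjusted p = 0.00255). Neither TRAF3 (adjusted p = 0.117) nor NFKBIB (0.691) was called with the 3' and 5' covariates.

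Of 19 chromatin regulators 5 were called lower and 1 higher in B dogs (5 and 0 with the 3' and 5' covariates), close to the share over all genes (32.9%). The DNA methyltransferase DNMT3A had 3.74, 4.73 and 5.48 in B dogs and 4.25, 7.16 and 8.97 in T dogs (-2.36, SE 0.44, adjusted p = 0.000375), and the BCL6 corepressor BCOR differed by -1.70 (SE 0.29). The gene EED of the polycomb complex was called higher (0.70, adjusted p = 0.00927), although not with the 3' and 5' covariates (adjusted p = 0.183). Of 17 genes listed with AP-1 and EGR 1 was called in each direction, MYC (also counted with the G1 genes) higher and IER3 lower. Neither is itself an AP-1 or EGR gene. The counts were 0 higher and 1 lower with the 3' and 5' covariates, and the share called was below that of all genes. Among genes of drug handling, 4 of 14 were called higher and 2 lower (2 and 2 with the 3' and 5' covariates). Over all genes the shares called were 32.9% and 16.9%. The thiopurine methyltransferase TPMT had 8.61, 9.67 and 9.94 in B dogs and 6.45, 7.81 and 8.93 in T dogs (1.89, SE 0.26, adjusted p = 1.63e-05). The glucocorticoid receptor NR3C1, target of prednisone, was lower in B dogs, with 4.70, 6.03 and 7.13 in B dogs and 6.51, 7.18 and 9.01 in T dogs (-1.61, SE 0.36, adjusted p = 0.00178). The efflux pumps ABCC1 (1.50, adjusted p = 0.000283) and ABCG2 (-2.11, adjusted p = 0.00217) differed in opposite directions, neither with a call under the 3' and 5' covariates (adjusted p = 0.0522 and 0.243).

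Surface antigens used in diagnosis were read as well. CD52, a target of antibody therapy, had 2.22, 3.65 and 6.23 in B dogs and 5.80, 8.98 and 11.88 in T dogs (difference -4.90, SE 0.76, adjusted p = 6.76e-05). CD5, a brake on the T cell receptor, had 2.84, 3.38 and 5.51 in B dogs and 3.96, 8.22 and 10.24 in T dogs, with LBT dog 3 the lowest T dog (-4.18, adjusted p = 5.93e-05). PTPRC (CD45), the leukocyte common antigen, overlapped more, with 9.21, 10.45 and 11.85 in B dogs and 10.50, 11.68 and 12.34 in T dogs (-0.99, adjusted p = 0.0121). CD79A, which forms part of the B cell receptor, had 6.22, 7.26 and 9.09 in B dogs and 2.13, 4.78 and 8.71 in T dogs, where 3 T dogs reached the range of the B dogs (2.45, adjusted p = 0.0156).

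Markers of other cell types were read as levels beside these differences. Of 6 macrophage markers tested, 0 were called higher and CD14 was called lower in B dogs, and the mean over the 8 with a probe set was 2.94 to 6.88 in B dogs and 3.25 to 6.81 in T dogs. For stroma the range was 2.23 to 9.31 in B dogs, with DLBCL dog 11 at the top, and 2.36 to 5.01 in T dogs, and of 3 tested limma called 0. Of 3 NK cell markers tested KLRD1 was called, higher in B dogs, and of 2 endothelial ones KDR was called, lower in B dogs (-1.70, adjusted p = 0.0312). Endothelial VWF, CDH5 and TEK were below the minimum in all 20 dogs, as were stromal PDGFRB, plasma cell SDC1 and NCR1 of NK cells. CD14, a monocyte receptor, had a difference of -1.76 (SE 0.30, adjusted p = 0.000190). In a longer stroma list 1 of 11 genes was called higher, the matrix gene FBN1 (3.36, SE 0.75, adjusted p = 0.00179), and 2 lower, with a median of -0.59 and 9 of 11 differences below 0, and with the 3' and 5' covariates 1 was called higher and 0 lower. Of 3 endothelial genes 2 were called lower, among them the coreceptor ENG (-2.78, adjusted p = 0.000855). Of 4 genes of follicular dendritic cells 2 were called higher (1 with the 3' and 5' covariates), among them the chemokine CXCL13 (2.72, adjusted p = 0.00912), with a list median of 0.01. Of 6 neutrophil, mast cell and erythroid genes 0 were called by limma and 1 had an unadjusted p under 0.05. The part of these cells in the other differences was not tested.

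The same contrast was taken among low-grade dogs, 5 labelled MZL (marginal zone lymphoma, B) against 9 labelled TZL (T-zone lymphoma), as a comparison. The MZL dogs were 4 females and 1 male of 4 to 10 years, among them 4 Golden Retrievers. The TZL dogs were 3 females and 6 males of 7 to 11 years, among them 8 Golden Retrievers. No label occurs in both the high-grade and the low-grade groups, so grade and type of lymphoma cannot be told apart here. The difference between the high-grade and the low-grade B to T contrast was tested in 1 fit over all 34 dogs, and limma called it for 419 of 7163 genes (5.85%), 135 of them positive (1.88%) and 284 negative (3.96%). The negative ones were led by genes that were bright in high-grade T tumours. FBP1 had a B to T difference of -4.91 at high grade and -0.07 at low grade (difference of differences -4.84, SE 0.50, adjusted p = 2.34e-07). DPP4 had -7.42 at high grade and -1.25 at low grade (adjusted p = 2.65e-06), and TSPAN5 had -5.73 and -0.99 in that order (adjusted p = 6.33e-05).

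SNAP91, a clathrin adaptor of synapses, had 2.10, 2.37 and 2.70 in high-grade B dogs and 3.12, 7.98 and 10.18 in high-grade T dogs, the lowest being PTCL dog 4, and was at least 14.8-fold lower in B dogs. Its difference was -5.51 at high grade and -0.16 at low grade. NSG1, an endosomal protein of neurons, had 2.14, 2.44 and 3.20 in B dogs and 2.31, 9.02 and 9.91 in T dogs, and its differences were -5.74 at high grade and -0.01 at low grade. The amyloid precursor protein APP had differences of -4.55 at high grade and -0.43 at low grade, again with PTCL dog 4 the lowest T dog (4.47). The adjusted p of the difference of differences was 2.47e-05 for SNAP91, 8.34e-05 for NSG1 and 6.89e-05 for APP. For UBE2E3, a ubiquitin-conjugating enzyme, and VGLL4, a cofactor of TEAD factors, the direction itself changed, with -1.22 and -1.38 at high grade against 3.21 and 2.17 at low grade.

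The positive ones were led by genes lower in B among low-grade dogs. CCDC3, a secreted protein of endothelium and fat, had a difference of -1.34 at high grade (adjusted p = 0.0788) and -7.82 at low grade. GBP5, an interferon-induced GTPase, had 0.11 at high grade and -4.73 at low grade, and the elongation factor TCEA3 0.56 and -5.66 in that order. FASLG (2.25 and -2.47), the cell cycle phosphatase CDC25B (0.99 and -2.19), AMZ2 (1.38 and -1.16) and ADPRH (1.04 and -1.48) were called higher in B at high grade and lower in B at low grade. GBGT1, a glycosyltransferase, was called lower in B at both grades (-1.10 and -3.69). The adjusted p of these 8 ran from 1.97e-06 for CCDC3 to 0.000354 for GBGT1. Among the large high-grade differences, PYGL (4.60 at high and 0.04 at low grade, adjusted p = 0.0235), MYB (-4.44 and -0.07, 0.000619), CCR9 (-5.05 and 0.08, 0.000922) and IKZF2 (-6.43 and -0.87, 0.000391) also differed between the grades. For TRAT1 (-7.01 and -6.08), GATA3 (-6.14 and -5.49), CD28 (-6.41 and -5.57) and PRKCQ (-5.98 and -5.27) the test made no call (adjusted p from 0.464 to 0.735).

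For gene lists, the median B to T difference of mitosis genes was -0.29 at high grade and 1.20 at low grade, with 1 of 24 genes called in the test of the difference. For DNA replication it was -0.12 and 0.95, with 7 of 32 called, and for the interferon response 1.47 and -0.41, with 3 of 23 called. For ribosome biogenesis it was 0.85 and 0.80, with 0 of 29 called. For all 7163 genes it was -0.00 and 0.10, with 5.85% called. The count of 419 genes became 258 with sex, Golden Retriever and age as covariates, 223 without the arrays that stood apart and 733 with array weights.

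**Figure D5:**
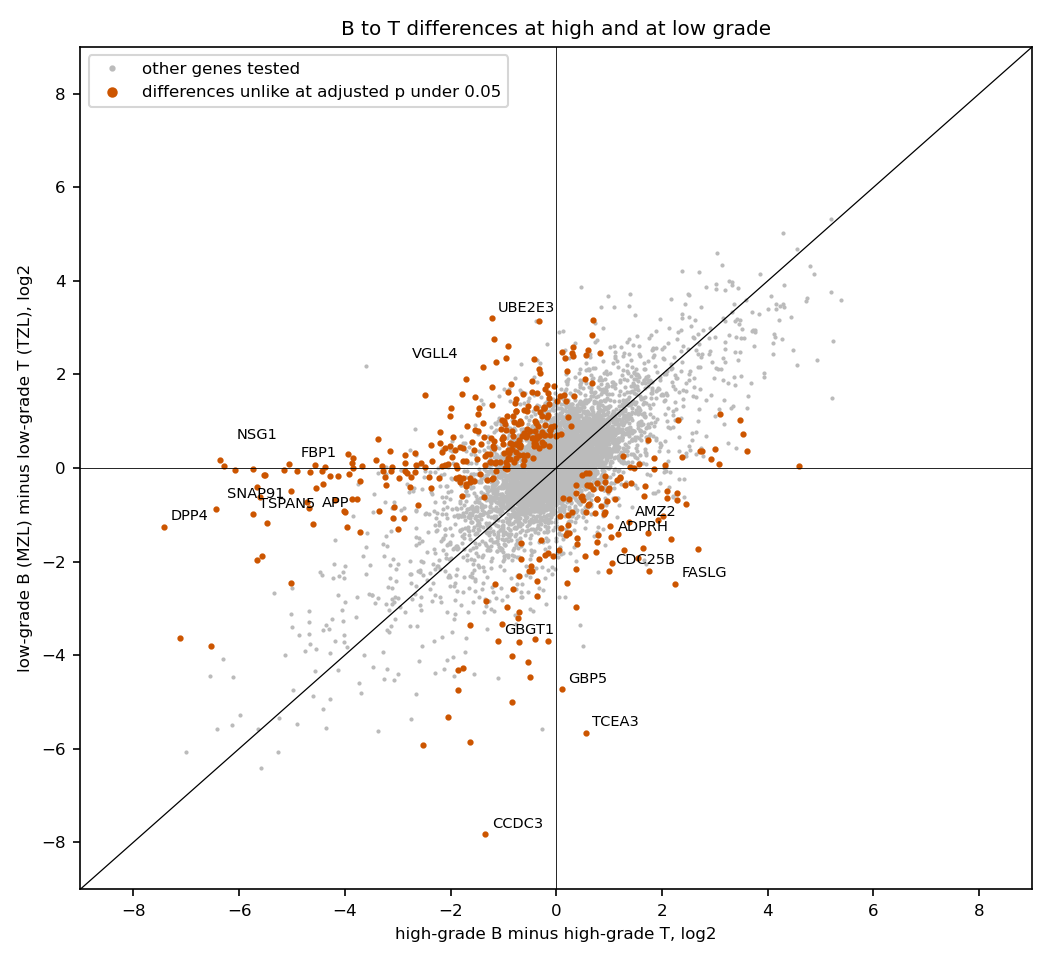
Log2 difference of B minus T for each of the 7163 genes among high-grade dogs (x axis) and among low-grade dogs (y axis), with the line of equal differences. Orange points are the 419 genes whose 2 differences were called unlike, and DPP4, FBP1, TSPAN5, SNAP91, NSG1 and APP lie far left with low-grade differences between -1.25 and -0.01.

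The T dogs were also taken by label. Against LBT alone 2090 genes (29.2%) were called, 933 higher (13%) and 1157 lower (16.2%) in B dogs, and against PTCL alone 1174 (16.4%), 567 higher (7.92%) and 607 lower (8.47%). The 2 comparisons share the 12 B dogs. Without PTCL dog 1, 2 or 3 the count against PTCL was 746, 743 or 719, and with sex, Golden Retriever and age as covariates 613. The median difference of B cell identity genes was 3.43 against LBT and 2.15 against PTCL, and that of T cell receptor genes -3.86 and -3.04 in the same order. PTHLH differed by -7.85 against LBT and -6.40 against PTCL, and BLNK by 6.96 and 3.80.

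Between the 4 LBT and the 4 PTCL dogs themselves limma called 14 genes (0.195%), 12 higher (0.168%) and 2 lower (0.0279%) in LBT. An unadjusted p under 0.05 was found for 704 genes. Limma called 0 genes with sex, Golden Retriever and age as covariates (384 with an unadjusted p under 0.05) and 0 with only these 8 dogs in the fit (543). Leaving out 1 dog gave 1 gene without LBT dog 2, 2 without PTCL dog 4, 5 without LBT dog 3, 22 without LBT dog 1, 31 without PTCL dog 3, 44 without LBT dog 4 and 92 without PTCL dog 2. The adaptor DOK4 was 6.37, 6.76, 6.19 and 6.71 in LBT dogs and 4.06, 4.20, 3.75 and 2.50 in PTCL dogs, a difference of 2.88 (SE 0.31, adjusted p = 8.35e-05) with no overlap. DSTN, an actin-severing protein, was 8.64, 9.69, 10.02 and 8.34 in LBT dogs and 4.95, 4.58, 5.70 and 6.04 in PTCL dogs (3.86, adjusted p = 0.0134). The amino acid transporter SLC16A10 (3.91), the kinase partner MOB2 (2.07), SPAG16 of the cilium (2.09) and the sphingosine phosphate lyase SGPL1 (2.04) were higher in LBT too. LPGAT1, a lipid acyltransferase, was 2.45, 2.69, 3.33 and 5.23 in LBT dogs and 6.27, 5.89, 6.13 and 6.21 in PTCL dogs (-2.70, adjusted p = 0.0160), and the adaptor SKAP2 was 4.62, 3.77, 4.51 and 5.99 in LBT dogs and 8.04, 6.59, 6.07 and 8.67 in PTCL dogs (-2.62, adjusted p = 0.0308). Both were also higher in B dogs than in T dogs, by 2.72 (SE 0.48) and 3.46 (SE 0.49).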

How the data were processed

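RNA of canine lymphomas had been hybridised to Affymetrix arrays with 43035 probe sets, 1 array per dog except for 1 dog with 2. The deposited values are linear intensity values, 1 per probe set and array, which the authors made with GCRMA (background correction, quantile normalization and summary of probes), per the submitters' processing notes. No source used here gives the version. Values were floored at 1 and taken as log2. Of the probe sets, 29254 carried 1 gene symbol, and the one with the highest mean over all arrays stood for each of 15115 genes. The 2 arrays of DLBCL dog 6 correlated at 0.989, against 0.854 to 0.954 for 54 other pairs of DLBCL arrays, and were averaged. Genes with log2 4 or more in at least 4 of the 20 dogs were tested.

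Fits used limma 3.58.1 in R 4.3.3 (two-sided, moderated, Benjamini-Hochberg over 7163 genes), and tables used Python 3.11.15. The 20 dogs were fitted as B and T, and again with LBT and PTCL apart, and 34 dogs with a mean for each lineage and grade. On simulated data the first comparison recovered 52% of 100 changed genes at a log2 difference of 1 and 92% of 100 at 2. The other of the 7163 genes were unchanged, with 7 false calls among them. Noise was normal and independent between genes, and far fewer genes were changed than were called in the dogs (32.9%). These rates may therefore not hold for the real data. The number of arrays limits the precision. P-values measure the spread between dogs.

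Named genes were the 12 largest called differences in each direction, up to 4 genes of smallest p in each described list with those called against its direction, a panel of 30 genes, the genes of smallest p in the grade and LBT tests (8 and 6 in each direction) and the 5 widest gaps in each direction. The members and the 34 lists were chosen with earlier results of these data known. Alternatives covered the filter, floor, scaling, choice of probe set, covariates (sex, Golden Retriever, age, or 3' minus 5' controls), array weights, subsets of dogs and each dog left out. Of 210 genes named by the rule, 103 had other tested probe sets, 152 in all, and 0 of these were called in the opposite direction. Some were not called at all, among them those of HK1 (0.72, limma adjusted p = 0.140), ADPRH (0.39, 0.194) and CD83 (-1.48, 0.0657). For IKZF2 (-0.02, adjusted p = 0.958) and FCRLA (1.11, 0.447) 1 other probe set was not called. Another was called in the main direction (-5.49 for IKZF2 and 5.02 for FCRLA).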

Additional observations from a re-analysis of the deposited data

Results flagged for a closer look

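Within the 10 DLBCL, the 4 LBT or the 4 PTCL dogs, 45 of the 471 groups looked at (157 genes that the text names, 3 labels each) had a dog far from the nearest other one for the range of its group, by Dixon's test at 95%. Chance gives this in about 1 of 20 groups, and no cause was tested. Of these single values 9 were below the minimum of log2 4. For 5 of them (DNTT, GUCY1B1, IRF7, SLC16A10 and TNFRSF18) the highest dog was itself at background, so these have no order, and the 4 low ones (ABCG2, ICOS, OSBPL6 and PLPP3) are known only to be under the minimum. DLBCL dog 3 stood alone most often. It was the highest of the DLBCL dogs for CD83 (log2 9.98), CD8A (log2 5.42), CD8B (log2 6.70), CDKN2D (log2 6.36), DDR1 (log2 5.36), DSTN (log2 6.42), IKZF2 (log2 4.64), MGLL (log2 6.06), SNCG (log2 5.31) and XBP1 (log2 11.29), which include both chains of CD8, and the lowest for NAPSA (6.50), OSBPL6 (3.24) and PLPP3 (5.24). PTCL dog 4 was the highest of the PTCL dogs for CD180 (7.53), GBGT1 (6.88) and RASGRP3 (7.08) and the lowest for CD4 (5.24), CD40LG (5.49), ITGA5 (4.68) and PLK3 (4.09). Among the other DLBCL dogs, single high values were those of CCDC3 (5.29 in dog 4), HMMR (8.37 in dog 8), MALT1 (6.82 in dog 1), SLC16A10 (2.71 in dog 8) and TNFRSF18 (3.53 in dog 10). Single low values in DLBCL dogs were those of CCNE1 (4.07 in dog 9), PYGL (5.64 in dog 9) and TPMT (8.61 in dog 8). Among the other LBT dogs, single high values were those of BCOR (8.91 in dog 3), CCDC3 (6.11 in dog 3), CHPT1 (4.48 in dog 4), GUCY1B1 (3.52 in dog 4), IRF7 (3.95 in dog 3), ITGB1 (7.82 in dog 1) and OSBPL6 (4.28 in dog 4). Single low values in LBT dogs were those of ABCG2 (3.91 in dog 3), CD3G (11.34 in dog 2), CDKN2D (4.21 in dog 1), ICOS (3.29 in dog 2), INPP4B (9.26 in dog 4), PLPP3 (2.55 in dog 2) and TOX (8.11 in dog 2). Among the other PTCL dogs, single high values were those of DNTT (3.08 in dog 1). Single low values in PTCL dogs were those of ADIPOR2 (6.58 in dog 2) and POLD1 (5.33 in dog 2).

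The B to T difference of high-grade dogs minus that of low-grade dogs was called by limma for the following genes that the text names. It was negative for DPP4 (-6.17), NSG1 (-5.72), SNAP91 (-5.36), FBP1 (-4.84), TSPAN5 (-4.75), UBE2E3 (-4.43), APP (-4.12) and VGLL4 (-3.55), the genes with the smallest p. It was also negative for IKZF2 (-5.56), CCR9 (-5.14), MYB (-4.37), TOX (-4.28), ITGA6 (-3.84), SLC16A10 (-3.71), CTSW (-3.69), PTHLH (-3.49), DDR1 (-3.11), TK1 (-2.94), MGLL (-2.73), DOK4 (-2.72), SATB1 (-2.70), MCM5 (-2.55), CCND3 (-2.22), SGPL1 (-2.01), CD14 (-1.90) and BCOR (-1.32). It was positive for CCDC3 (6.49), TCEA3 (6.22), GBP5 (4.84), FASLG (4.72), CDC25B (3.19), GBGT1 (2.59), AMZ2 (2.54) and ADPRH (2.52), again the genes with the smallest p, and for PYGL (4.56), CD70 (3.95), USP18 (3.22), ITGB1 (2.96), CHPT1 (2.44), FKBP11 (2.37) and C10H12orf66 (1.27). The LBT minus PTCL difference was called for DOK4 (2.88), DSTN (3.86), LPGAT1 (-2.70), MOB2 (2.07), SGPL1 (2.04), SKAP2 (-2.62), SLC16A10 (3.91) and SPAG16 (2.09), and the genes called for both tests were DOK4, SGPL1 and SLC16A10.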

How the results depend on the processing

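The count of 2359 genes between high-grade B and T stayed within 1.5 times under all alternatives run except 3. It was 4108 over every probe set, 1213 with the actin and GAPDH 3' minus 5' differences as covariates, and 1423 when a 2-fold difference was also required. Leaving out 1 dog gave 2086 to 2489. The 3' and 5' covariates also gave 1358 genes against LBT, 641 against PTCL and 35 between LBT and PTCL. With sex, Golden Retriever and age as covariates there were 613 genes against PTCL, 0 between LBT and PTCL and 258 by grade. Without the arrays that stood apart there were 687 against PTCL and 223 by grade. Array weights gave 32 between LBT and PTCL and 733 by grade. A filter at log2 6 left 9 between LBT and PTCL, and the 8 dogs alone gave 0. Without PTCL dogs 1 and 4, chosen after seeing the data, 776 genes were called by grade. Leaving out 1 dog gave 1622 to 2190 genes against LBT, 719 to 1367 against PTCL, 1 to 92 between LBT and PTCL and 314 to 604 by grade. The causes of these shifts were not tested.

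Of 8147 values of 205 named genes under the alternatives, 7714 kept their side of the threshold. Among these, 29 changed sign, with no call under either setting. A further 367 lost the call and 64 gained one, all in the same direction. The last 2 had a call in the main fit and changed sign with the 3' and 5' covariates. They were BAK1 (0.035) and TK1 (0.43), and TK1 was not called there. No paired analysis was possible because each dog is its own case and the replicate numbers pair no dogs across groups.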

Other observations

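Several genes of the panel and lists, chosen with earlier results of these data known, carried further differences between high-grade B and T dogs. TNFRSF13C, the BAFF receptor that keeps mature B cells alive, had 4.28, 5.45 and 7.29 (lowest, median and highest log2 values) in B dogs and 1.66, 2.47 and 5.51 in T dogs, and was higher by 2.48 in B dogs (SE 0.51, adjusted p = 0.000898 by limma). The highest T dogs overlapped the lowest B dogs. BCL11A, a factor of early B cells, had 8.04, 8.70 and 9.79 in B dogs and 3.51, 7.00 and 8.82 in T dogs, with overlap (difference 2.11, SE 0.50, adjusted p = 0.00278). SUSD3, a small membrane protein listed with the germinal centre genes, differed by 1.95 (SE 0.41, adjusted p = 0.00107).

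CD3G, which codes for the CD3 gamma chain, was bright in both groups, with 9.08, 9.88 and 10.86 in B dogs and 9.72, 11.74 and 12.06 in T dogs, and its difference was -1.53 (SE 0.28, adjusted p = 0.000329). CCR8, a receptor of regulatory and skin T cells, reached the minimum in no B dog but was at 8.60 in the highest T dog (difference -2.30, SE 0.58, adjusted p = 0.00447), and it was not called with the 3' and 5' covariates (adjusted p = 0.205). IER3, an early response gene, was lower in B dogs (-1.91, SE 0.39, adjusted p = 0.000745), with 2.45, 3.51 and 6.00 in B dogs and 4.05, 6.02 and 6.76 in T dogs. HPRT1, the purine salvage enzyme, was higher in B dogs by a small but tight margin, with 9.76, 10.14 and 10.52 in B dogs and 9.37, 9.53 and 9.68 in T dogs, which did not overlap (difference 0.64, SE 0.13, adjusted p = 0.000724). POLE2, a subunit of polymerase epsilon, was called higher in B dogs (1.27, SE 0.26, adjusted p = 0.000949), although not with the 3' and 5' covariates (adjusted p = 0.129).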
